A study of Rattus norvegicus with 20 samples.

Results

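Inward rectifier potassium channels, encoded by the Kcnj genes, were examined in the arcuate nucleus of infant female rats. The set held 10 genes (Kcnj2, Kcnj3, Kcnj4, Kcnj5, Kcnj6, Kcnj9, Kcnj10, Kcnj11, Kcnj14 and Kcnj16), taken by the gene name that the array files give each probe. They were measured by 13 probes that are not controls, with 2 probes for each of 3 genes and 1 probe for each of the other 7. After a filter on dim probes, 8 probes of 7 members were tested beside all other genes, 17086 genes in all.

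The samples were arcuate nuclei, a hypothalamic region, of 20 female Sprague-Dawley rats on postnatal day 15, 4 in each of 5 conditions. SNS rats came from mothers given saline in pregnancy, had no spasms and received saline after birth. Mothers of the other 4 conditions were given the glucocorticoid betamethasone on gestational day 15, as 2 injections at 0.4 mg/kg each. BNS rats had no spasms and received saline. BYS, BYA and BYP rats had spasms triggered by the glutamate receptor agonist NMDA, given at 12, 13 and 15 days of age, and were treated with saline, with adrenocorticotropic hormone (ACTH) or with PMX53, an antagonist of the complement receptor C5ar1, respectively. The design thus asks what prenatal betamethasone did (BNS against SNS), what spasms added (BYS against BNS), and how the treated rats stood against the untreated and the control rats. The saline-exposed group had no NMDA arm, so NMDA was given only on a betamethasone background.

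Inward rectifiers pass potassium more readily into the cell than out of it and hold the membrane near its resting potential. The Kir2 channels (Kcnj2, Kcnj4, Kcnj14) are open without a signal, the Kir3 or GIRK channels (Kcnj3, Kcnj5, Kcnj6, Kcnj9) are opened by the beta-gamma subunits of Gi/o proteins below GABA-B, opioid and other receptors, and Kir6.2 (Kcnj11) forms the ATP-sensitive channel with a sulfonylurea receptor. Kir4.1 (Kcnj10) carries potassium uptake by glia and combines with Kir5.1 (Kcnj16). In the arcuate nucleus, GIRK and ATP-sensitive channels are known for the inhibition of neurons that make proopiomelanocortin, neuropeptide Y and agouti-related peptide.

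Each level below is the value of 60-base probes, so the probe sequences are shown here for the members on which the results turn and for the genes whose probes disagreed. Coordinates are those the files give on the rat build rn4, sequences run 5′ to 3′ in lower case, and the exon structure was not used here. Of each probe, the whole or the first 30 bases are printed. The Kir2 probes are Kcnj4 at chr7:117602501-117602560 and Kcnj14 at chr1:96293795-96293854, both on the minus strand.
Kcnj4, A_44_P252491: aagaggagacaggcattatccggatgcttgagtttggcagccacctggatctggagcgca
Kcnj14, A_64_P126675: gaggatctctatgatcgtgggtagctttct
For the Kir3 subunits, Kcnj6 is at chr11:35025584-35025643 on the minus strand. The probes of Kcnj9 are at chr13:88311648-88311707 and chr13:88312815-88312874, also on the minus strand, with their starts 1167 bases apart.
Kcnj6, A_44_P182270: agtggaaaagtagaatttcagtaagagttg
Kcnj9, A_43_P12950: ggccctggagagggacctgaggagacccaa
Kcnj9, A_64_P133982: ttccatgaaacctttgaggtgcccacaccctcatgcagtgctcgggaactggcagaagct
The Kcnj3 probes lie on the plus strand at chr3:37256278-37256337 and chr3:37258241-37258300. The Kcnj5 probes lie on the minus strand at chr8:31934385-31934444 and chr8:32083323-32083382, 149 kb apart.
Kcnj3, A_44_P452163: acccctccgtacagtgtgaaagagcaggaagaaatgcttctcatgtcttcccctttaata
Kcnj3, A_44_P452282: tgtgtactaacatagattttcctatacatt
Kcnj5, A_43_P11901: atggctagctacattgtggaccagacacag
Kcnj5, A_64_P134008: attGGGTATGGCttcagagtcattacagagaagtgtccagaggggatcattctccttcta
The capitals in the last sequence mark the codons for glycine, tyrosine and glycine, the signature of the potassium selectivity filter. Kcnj16 was measured at chr10:100515861-100515920 on the plus strand.
Kcnj16, A_42_P833096: caatatcttatctcctaagcacaacagatg

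A level below is the base 2 logarithm of a background-corrected and quantile-normalized intensity, and a difference passed, or was called, where limma's p adjusted over all genes was under 0.05. The signal differed between conditions over the whole array before any member was compared. The median ratio of spot signal to local background was 5.66 to 11.3 in SNS and 6.6 to 10.4 in BYA, against 14 to 19.8 in BNS and 13.9 to 19.9 in BYS, with BYP at 7.02 to 10.9. SNS, BNS, BYS and BYP samples each lay on 1 slide of their own, and the BYA samples lay on slides 4 and 5. No slide held samples of different conditions, so slide and condition cannot be told apart for any of the 5 conditions. The 8 arcuate markers listed, among them Agrp, Npy and Pomc, were all tested. The log2 of their summed intensities, where the brightest markers weigh most, was 16.11 to 17.39 across samples. Of 3 red blood cell markers, 2 were higher than in SNS in each of BNS, BYS and BYA, and 0 in BYP, and their part in the results below was not tested. Over all genes, 27.1% to 31.3% passed against SNS in the 4 conditions, higher and lower together. The SNS samples enter each comparison with SNS, so the 4 such comparisons are not independent of one another. In whole tissue, fewer cells of a type and less RNA per cell cannot be told apart.

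Kcnj14, which encodes the Kir2 subunit Kir2.4, was the member with the clearest difference between conditions. Its log2 level was 9.73, 9.71, 9.53 and 9.55 in the 4 SNS rats and 9.68, 9.83, 10.02 and 10.12 in the BNS rats. It was 10.29, 10.13, 10.14 and 10.24 in BYS, 10.28, 10.22, 10.16 and 10.15 in BYA, and 10.16, 10.67, 10.14 and 10.19 in BYP. Every rat given NMDA thus had a higher level than every SNS rat and, by a margin as small as 10.13 against 10.12, than every BNS rat, while the ranges of SNS and BNS overlapped.

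In ascending order, the means were 9.63 ± 0.10 (SD, n = 4) in SNS, 9.91 ± 0.20 in BNS, 10.20 ± 0.08 in BYS, 10.20 ± 0.06 in BYA and 10.29 ± 0.25 in BYP. Against SNS, Kcnj14 was 1.48-fold higher in BYS, a log2 difference of 0.57 (SE 0.115, 95% confidence interval 0.33 to 0.81, limma adjusted p = 0.00157). The difference was 0.57 in BYA (limma adjusted p = 0.0014) and 0.66 in BYP, or 1.58-fold (95% confidence interval 0.42 to 0.90, limma adjusted p = 0.000445). BNS lay 0.28 above SNS and did not pass (limma adjusted p = 0.0755).

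Placed against BNS, the rats that shared its prenatal betamethasone, Kcnj14 was 0.29 higher in BYS, 0.29 higher in BYA and 0.38 higher in BYP on the log2 scale. None of the 3 differences passed (limma adjusted p = 0.612, 0.298 and 0.0959). Separation without overlap of 2 groups was found for 6.47% of all genes in BYS, 8.73% in BYA and 13.3% in BYP against BNS.

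**Figure D1:**
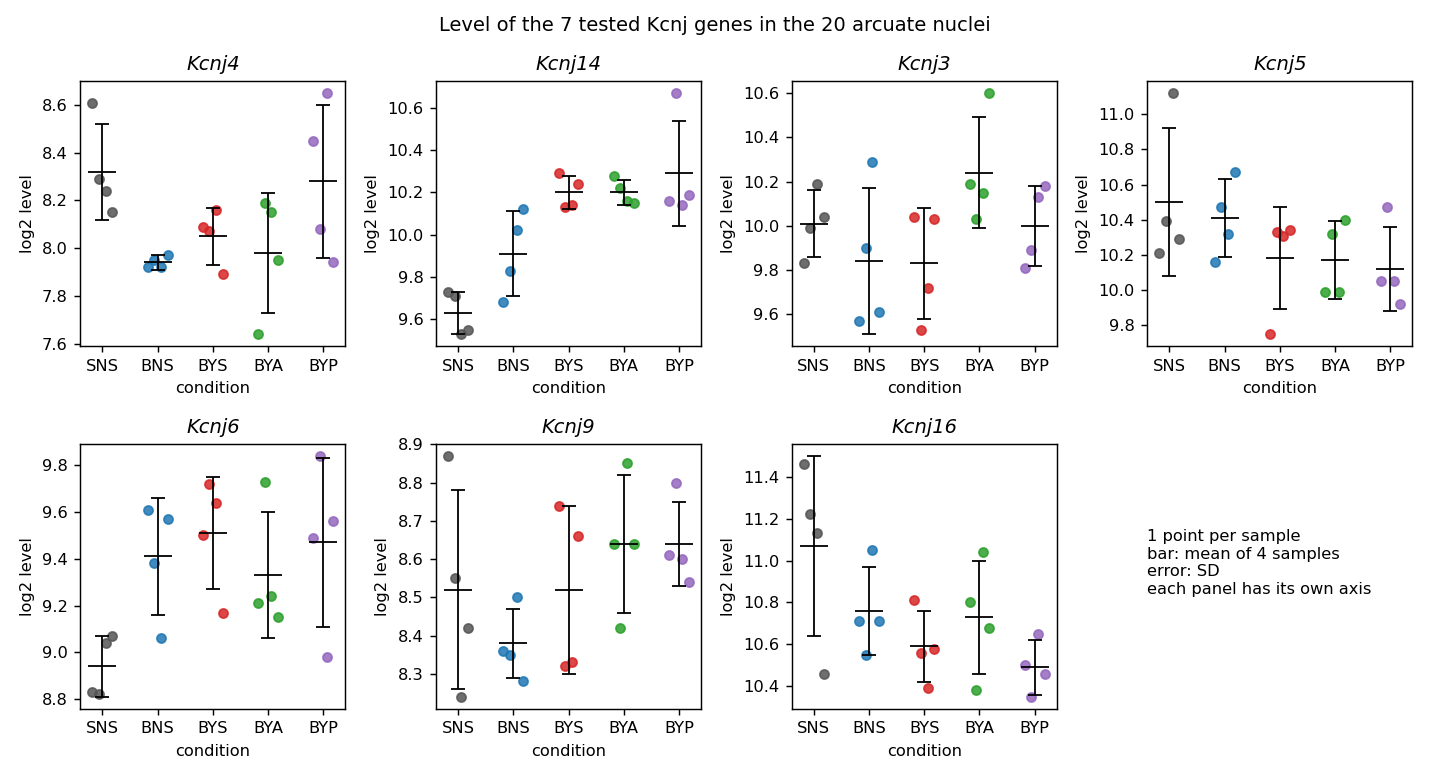
Log2 level (quantile-normalized intensity) of the 7 tested members by condition, 1 point per rat with the mean and SD of 4 rats. For Kcnj14 the points of BYS, BYA and BYP all lie above those of SNS and BNS, and for Kcnj6 the SNS points, at 8.82 to 9.07, lie at the low end.

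The Kcnj14 calls against SNS held when any single rat was left out and with the array as a random block. They did not hold with the processed signals that the extraction software had background-subtracted and dye-normalized, where the differences were 0.30 in BYS, 0.25 in BYA and 0.46 in BYP (limma adjusted p = 0.206, 0.317 and 0.0546) and BNS stood at -0.02. The BYP call was also lost when channels were scaled to 1 common median (0.40, adjusted p = 0.08) and with the methods' t-test after Benjamini-Hochberg adjustment.

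Kcnj4, which encodes Kir2.3, was lower after prenatal betamethasone. SNS rats had log2 levels of 8.61, 8.29, 8.24 and 8.15, and BNS rats had 7.92, 7.95, 7.92 and 7.97. All 4 BNS values lay below all 4 SNS values and within a narrow band. The difference was -0.39 (SE 0.14, 95% confidence interval -0.68 to -0.09, limma adjusted p = 0.047).

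With NMDA, the values were 8.09, 8.07, 8.16 and 7.89 in BYS, 7.64, 8.19, 8.15 and 7.95 in BYA, and 8.45, 8.08, 8.65 and 7.94 in BYP. These ranges overlapped among themselves, and BYP reached as high as SNS. The differences from SNS were -0.27 in BYS (limma adjusted p = 0.155), -0.34 in BYA (0.0724) and -0.04 in BYP (0.837). BYP stood 0.34 above BNS (limma adjusted p = 0.21).

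The probe of Kcnj4 was dim, well above background in 16 of 20 samples, with 2 of the other samples in SNS and 2 in BYA. The call for BNS was lost on leaving out any rat but SNS replicate 3, with differences of -0.44 to -0.31 and adjusted p up to 0.142, with the processed signals (-0.52, adjusted p = 0.265), with median scaling (-0.22, adjusted p = 0.529) and with the array as a random block (adjusted p = 0.18). Kcnj2, which encodes Kir2.1, was well above background in 1 of 20 samples, at log2 levels of 7.27 to 7.70, and was not tested.

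Among the Kir3 subunits, Kcnj6 (Kir3.2, or GIRK2), a main subunit of neuronal channels, was higher in 3 of the 4 conditions exposed to betamethasone than in SNS. Its log2 level was 8.83, 8.82, 9.04 and 9.07 in SNS and 9.61, 9.38, 9.06 and 9.57 in BNS. In the NMDA groups it was 9.50, 9.72, 9.64 and 9.17 in BYS, 9.21, 9.73, 9.24 and 9.15 in BYA, and 9.49, 9.84, 8.98 and 9.56 in BYP. No SNS rat exceeded 9.07, and of the 16 other rats 1 in BNS and 1 in BYP had levels within the SNS range.

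Kcnj6 was 0.47 higher in BNS (SE 0.171, 95% confidence interval 0.11 to 0.83, limma adjusted p = 0.0484). It was 0.57 higher in BYS (0.21 to 0.93, limma adjusted p = 0.0206) and 0.53 higher in BYP (0.17 to 0.89, limma adjusted p = 0.0281). BYA lay 0.39 above SNS without overlap and did not pass (limma adjusted p = 0.088). The means of the 4 exposed groups, from 9.33 in BYA to 9.51 in BYS, gave no difference among themselves that passed.

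Each of the 3 Kcnj6 calls depended on single rats. With rats left out in turn, the BNS call was lost without SNS replicates 1, 2 or 4 or BNS replicates 1, 2 or 4 (differences of 0.37 to 0.56), the BYS call without SNS replicate 2 or BYS replicates 1, 2 or 3 (adjusted p of 0.0517 to 0.0703), and the BYP call without SNS replicates 1 or 2 or BYP replicates 1, 2 or 4 (0.0551 to 0.0954). With the processed signals the differences were 0.37, 0.49 and 0.50 and none passed (adjusted p = 0.345, 0.201 and 0.184), nor did they with median scaling (0.117, 0.0519 and 0.109) or with the array as a random block (0.156, 0.0912 and 0.11).

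Kcnj3 (Kir3.1, or GIRK1), the usual partner of the other Kir3 subunits, did not pass in any comparison. Its log2 level was 9.83, 9.99, 10.19 and 10.04 in SNS, 9.57, 9.90, 10.29 and 9.61 in BNS, and 10.04, 9.53, 9.72 and 10.03 in BYS. It was 10.19, 10.03, 10.15 and 10.60 in BYA and 9.81, 9.89, 10.13 and 10.18 in BYP. The ranges of all 5 groups overlapped, and BYA had the highest mean, at 10.24 ± 0.25 (SD, n = 4). The widest differences were BYA over BYS, 0.41 (95% confidence interval 0.06 to 0.76, limma adjusted p = 0.537), and BYA over BNS, 0.40 (0.05 to 0.75, limma adjusted p = 0.311).

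Kcnj5 (Kir3.4, or GIRK4), a subunit known best from the heart and present in the hypothalamus, did not pass either. It was at 10.21, 10.39, 11.12 and 10.29 in SNS, 10.16, 10.47, 10.32 and 10.67 in BNS and 9.75, 10.33, 10.31 and 10.34 in BYS. It was at 9.99, 10.32, 9.99 and 10.40 in BYA and at 10.05, 10.47, 10.05 and 9.92 in BYP. SNS replicate 3 was the highest of all 20 rats, and the group ranges overlapped throughout. The differences from SNS were -0.32 in BYS, -0.33 in BYA and -0.38 in BYP, with limma adjusted p of 0.2, 0.183 and 0.126. For BYP the 95% confidence interval ran from -0.77 to 0.01, so a moderately lower level is within what these 8 rats allow.

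The second probes of Kcnj3 and Kcnj5, shown above, were well above background in 2 and 1 of 20 samples, at log2 levels of 7.16 to 7.67 and 7.17 to 7.74. The values of both genes therefore come from 1 probe each. For Kcnj5 the dim probe is the one that holds the selectivity filter codons, 149 kb from the bright one on rn4.

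Kcnj9 (Kir3.3, or GIRK3), a subunit that modifies the surface level of GIRK channels in neurons, was measured by 2 probes that disagreed. As the mean of both, its log2 level ranged from 8.24 to 8.87 among the SNS rats. The BNS rats ranged from 8.28 to 8.50, the BYS rats from 8.32 to 8.74, the BYA rats from 8.42 to 8.85 and the BYP rats from 8.54 to 8.80. The ranges overlapped in all pairs but BYP and BNS, whose difference was 0.26 (limma adjusted p = 0.3).

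Probe A_43_P12950 alone gave 9.39, 8.84, 8.70 and 9.07 in SNS and 8.39, 8.37, 8.59 and 8.23 in BNS. All BNS values were below all SNS values, with a difference of -0.61 (SE 0.183, limma adjusted p = 0.0199 over all probes, where 28.7% of probes passed). Probe A_64_P133982 gave 8.35, 8.27, 7.79 and 7.78 in SNS and 8.34, 8.34, 8.41 and 8.33 in BNS, a difference of 0.31 in the other direction that did not pass (limma adjusted p = 0.0704). The SNS values of the second probe were well above background in 2 of 4 rats. In BYP the first probe gave 9.02, 9.24, 8.98 and 8.95, and the second gave 8.21, 8.35, 8.21 and 8.13. The differences of BYP from BNS were 0.65 (limma adjusted p = 0.0781) and -0.13, so the direction for Kcnj9 depended on the probe. With the brighter probe alone, Kcnj9 passed the F test over the 5 conditions (adjusted p = 0.0476) and its difference of BYA from SNS was -0.23, against 0.11 for the mean of both.

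**Figure D2:**
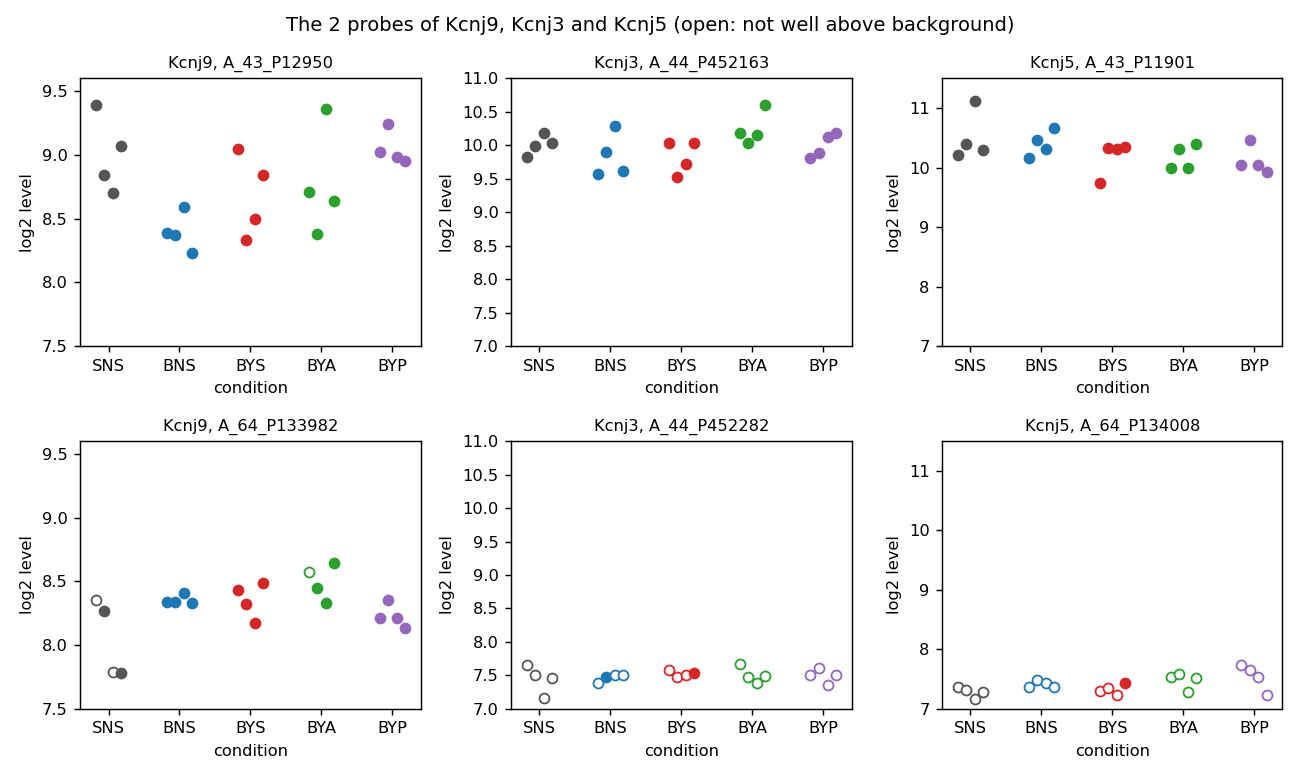
Log2 level by condition for both probes of Kcnj3, Kcnj5 and Kcnj9, 1 point per rat, open where the probe was not well above background. For Kcnj3 and Kcnj5 only 1 probe of each pair was above background in most rats, and for Kcnj9 the BNS rats were below the SNS rats on probe A_43_P12950 and not on A_64_P133982.

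Kcnj11, the pore of the ATP-sensitive channel, was well above background in 8 of 20 samples, at log2 levels of 7.32 to 7.87, and was not tested. The sulfonylurea receptors that join Kir6 subunits were both tested. Abcc8 (SUR1), the partner of Kir6.2 in neurons, fell by 0.32 on the log2 scale in BNS against SNS (95% confidence interval -0.52 to -0.11, limma adjusted p = 0.0234, groups without overlap). That call was lost without SNS replicate 3 (-0.22, adjusted p = 0.0861) or BNS replicate 2 (-0.30, 0.0589). Abcc9 (SUR2), the partner in vessel walls, was 0.35 lower in BYA than in SNS without passing (log2 difference -0.35, limma adjusted p = 0.0509).

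Kcnj16 (Kir5.1), which joins Kir4.1 in channels that respond to pH, was lower in BYS and BYP than in SNS. Its log2 level was 11.46, 11.22, 11.13 and 10.46 in SNS and 10.71, 10.55, 11.05 and 10.71 in BNS. It was 10.81, 10.56, 10.39 and 10.58 in BYS, 10.80, 10.38, 11.04 and 10.68 in BYA, and 10.50, 10.35, 10.65 and 10.46 in BYP. SNS replicates 1 to 3 were above all 16 other rats, and SNS replicate 4 lay among the low values, so SNS overlapped with each group.

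In descending order, the means were 11.07 ± 0.43 (SD, n = 4) in SNS, 10.76 ± 0.21 in BNS, 10.73 ± 0.27 in BYA, 10.59 ± 0.17 in BYS and 10.49 ± 0.13 in BYP. Kcnj16 was 0.58 lower in BYP than in SNS (log2 difference -0.58, SE 0.152, 95% confidence interval -0.90 to -0.26, limma adjusted p = 0.00922). In BYS the difference was -0.48 (-0.80 to -0.16, limma adjusted p = 0.0266). BNS and BYA, at -0.31 and -0.34, did not pass (limma adjusted p = 0.131 and 0.0968), and no difference among the exposed groups passed.

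The BYP call of Kcnj16 held with any single rat left out (-0.75 to -0.48). The BYS call was lost without SNS replicate 1, SNS replicate 2 or BYS replicate 3 (adjusted p = 0.0882, 0.0917 and 0.107), while without SNS replicate 4 BNS and BYA also passed (-0.48 and -0.51, adjusted p = 0.014 and 0.00956). With the processed signals neither call was made (BYS -0.29, adjusted p = 0.263, and BYP -0.37, adjusted p = 0.144). The BYS call was lost in 7 of 14 other settings, among them median scaling (-0.42, adjusted p = 0.222) and the array as a random block (0.0812), and the BYP call in 4 of 14 (median scaling -0.96, 0.00762; array block 0.0355).

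The levels of markers of other cell types are set beside this result. Over all genes, 27.1% passed in BYS and 28.9% in BYP against SNS. Of 4 choroid plexus markers listed, Ttr and Folr1 were tested, while Kl and Kcnj13 were not above the filter. The log2 of the summed intensities of Ttr and Folr1 was 11.69 to 12.75 in SNS, 10.73 to 11.76 in BYS and 10.77 to 11.46 in BYP. Neither gene passed in BYS or BYP against SNS. On the same measure, the 4 tanycyte and ependymal markers had 12.66 to 13.31 in SNS, 12.42 to 13.16 in BYS and 12.27 to 12.75 in BYP. Of these 4, 2 passed as lower in BYP. The 6 microglial markers had 13.55 to 13.65 in SNS and 13.01 to 13.52 in the other 4 groups. Of these, Cx3cr1 passed as lower in BYS and BYP (-1.22 and -0.61), P2ry12 as lower in BYP (-0.98) and Itgam as higher in BYP (0.72).

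The log2 of the summed intensities of the 7 astrocyte markers was 14.32 to 14.91 over all samples, with single markers apart. S100b (1.31, limma adjusted p = 0.00962) and Gfap (0.86, 0.0392) were higher in BYP than in SNS, and Gja1 was higher in BYS (0.27, 0.0479). Of the endothelial and mural markers, Cldn5, Pecam1, Pdgfrb and Acta2 were lower in BYS (-0.38, -0.35, -0.49 and -0.39) and Rgs5 was higher (0.62), and Pdgfrb was lower in BYP (-0.47). Of the arcuate markers, Npy and Tac3 were lower in BYS (-0.75 and -0.76). The part of these cells in the Kcnj16 difference was not tested.

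Kcnj10, which encodes Kir4.1, was well above background in 1 of 20 samples, at log2 levels of 7.33 to 7.69. It was not tested.

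Counted together, the 7 tested members gave calls at about the share seen over the array as a whole. Over the 5 conditions, Kcnj14 and Kcnj16 passed limma's F test (adjusted p = 0.00149 and 0.0487), as did 30.3% of all genes. The Kcnj16 call was lost on leaving out any of 16 of the 20 rats in turn (adjusted p up to 0.153), the exceptions being SNS replicate 4, BYS replicate 4 and BYA replicates 2 and 3, and in 8 of 11 other settings (up to 0.429). Kcnj6, Kcnj4, Kcnj3, Kcnj5 and Kcnj9 did not (adjusted p = 0.0706, 0.0957, 0.221, 0.303 and 0.379).

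In BNS against SNS, 2 members passed, Kcnj6 higher and Kcnj4 lower, where 28.6% of all genes passed. Against SNS, 3 members passed in BYS (27.1% of all genes), 1 in BYA (31.3%) and 3 in BYP (28.9%). Kcnj14 was among those called in each of these 3 comparisons. Members whose groups did not overlap numbered 1 in BNS (33.0% of all genes), 2 in BYS (27.7%), 2 in BYA (27.6%) and 1 in BYP (27.3%). Over the 7 members, the median log2 difference was -0.15, -0.18, 0.11 and -0.01 in BNS, BYS, BYA and BYP against SNS, beside -0.044, -0.033, -0.039 and -0.044 over all genes.

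**Figure D3:**
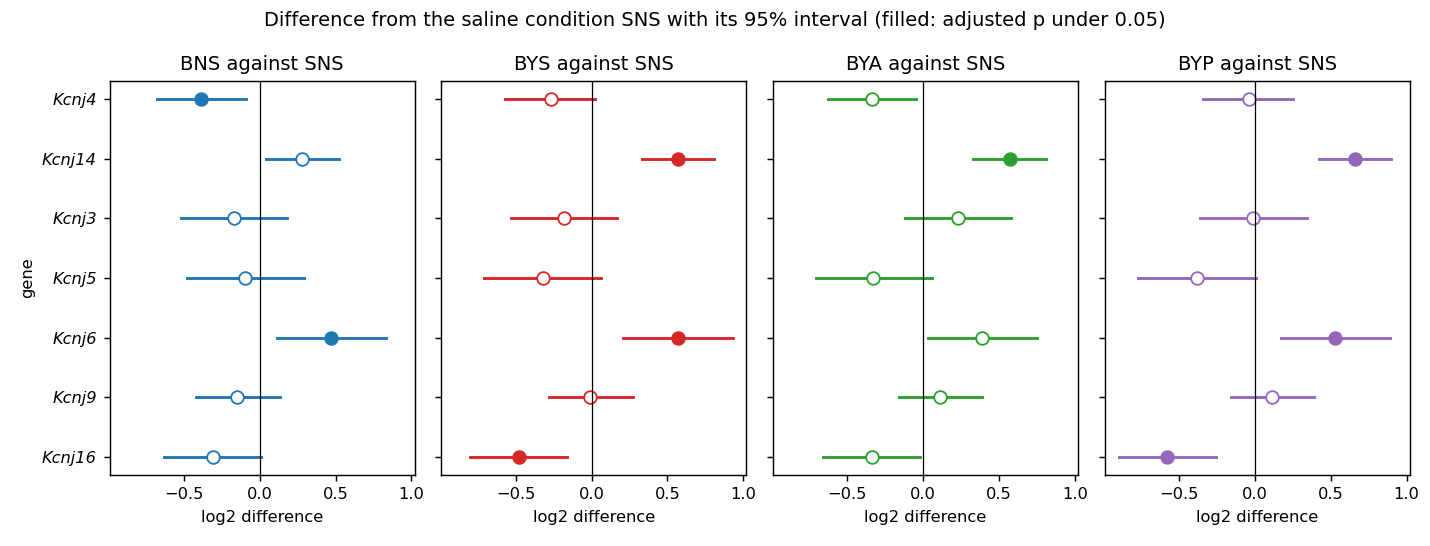
Log2 difference from SNS of the 7 tested members in BNS, BYS, BYA and BYP, with 95% confidence intervals from the limma fit. Kcnj14 and Kcnj6 lie to the right of 0 and Kcnj16 to the left in all 4 comparisons, which share the same SNS rats.

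Between the conditions exposed to betamethasone, limma called 0 of the 7 members. Few genes of any kind passed there, with 0.0293% for BYS against BNS, 0.117% for BYA against BNS, 1.50% for BYP against BNS, 0% for BYA against BYS, 0.0351% for BYP against BYS and 0.158% for BYP against BYA. At an unadjusted p under 0.05, the members numbered 1, 2, 2, 1, 0 and 1 in the same order, against 6.92%, 13.1%, 17.8%, 8.07%, 8.49% and 13.6% of all genes. The methods' t-test, run on the levels used here, called Kcnj9 in BYP against BNS at its unadjusted threshold and no member in the other 5. That Kcnj9 value is the mean of 2 probes that went opposite ways (0.65 and -0.13). The paper names Kcnj14 and Kcnj6 as regulated by spasms in females, and Kcnj3 in males only. Here Kcnj14 was the 1 member counted for BYS against BNS at the unadjusted threshold. Its difference was 0.29, without overlap (limma unadjusted p = 0.022, adjusted p = 0.612). Kcnj6 and Kcnj3 had differences of 0.1 and -0.01 there (limma unadjusted p = 0.558 and 0.938). The paper used its own processing and added a fold-change cut-off for each gene, so the 2 outcomes are not like for like. For BYP against BNS the 95% confidence interval was 0.14 to 0.62 for Kcnj14 and 0.05 to 0.64 for Kcnj4, so these data do not show that the groups are alike.

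**Figure D4:**
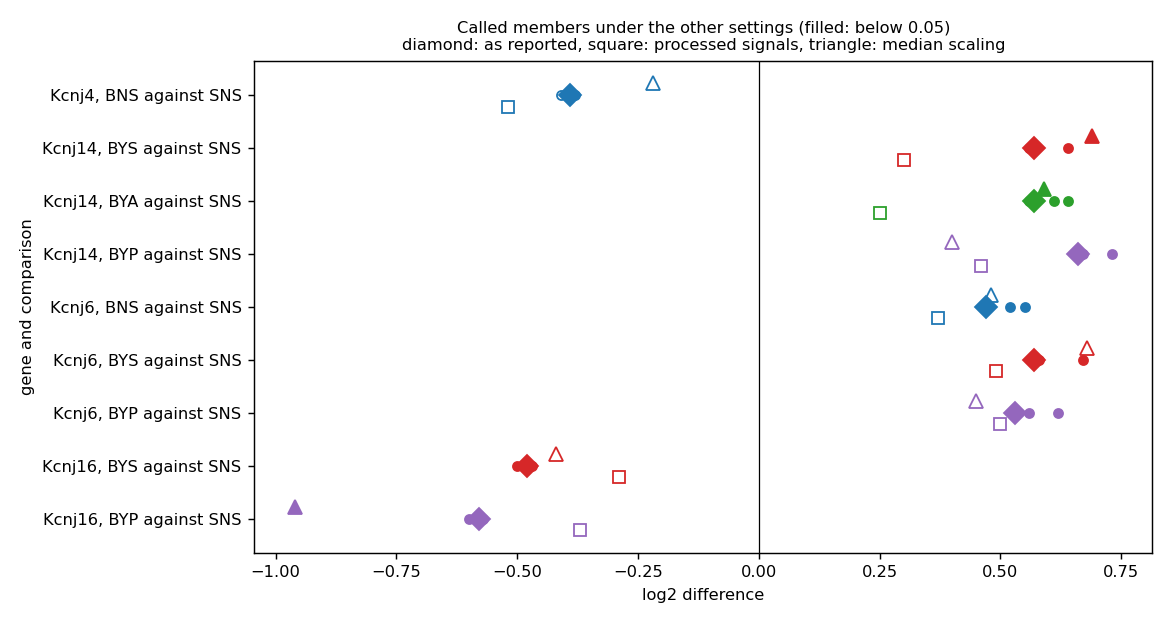
Log2 difference from SNS of members with a call, under the fit reported and under other settings of the processing, with filled points for adjusted p below 0.05, diamonds for the values reported, squares for processed signals, triangles for median scaling and circles for the rest. The Kcnj14 differences in BYS, BYA and BYP stayed above 0 under each setting shown and were not called with the processed signals.

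The other genes of these pathways were counted from lists of their known roles. Over all genes, 28.6% passed in BNS, 27.1% in BYS, 31.3% in BYA and 28.9% in BYP against SNS. The receptor, subunit, regulator, glial and scaffold lists each stayed below these shares, so their calls do not set these pathways apart. Of 5 other Kir genes, Kcnj8 (Kir6.1) and Kcnj12 (Kir2.2) were tested and neither passed in any comparison. For BNS against SNS their log2 differences were 0.37 (limma adjusted p = 0.0681) and -0.33 (0.157), the latter turning to 0.50 with the processed signals. Of 21 receptors that open Kir3 channels, 17 were tested. In BNS against SNS, 2 were higher and 1 was lower: the delta opioid receptor gene Oprd1 by 0.53 (limma adjusted p = 0.00113), the kappa opioid receptor gene Oprk1 by 0.34 (0.0241), and the somatostatin receptor gene Sstr2 with a difference of -0.40 (0.0322). In BYS only Oprk1 passed (0.31, limma adjusted p = 0.0409), in BYA none of the 17, and in BYP the adenosine receptor gene Adora1 was higher (0.25, 0.0467) and the neuropeptide Y receptor gene Npy1r lower (-0.42, 0.0456).

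Oprd1 also separated BYP from BNS, at -0.75 (95% confidence interval -0.96 to -0.53, limma adjusted p = 0.00182), from a mean log2 level of 8.74 in BNS to 7.99 in BYP. The call was made with any single rat left out (-0.81 to -0.67) and in 11 of 13 other settings, and was lost with median scaling (-0.32, adjusted p = 0.834) and with the methods' t-test after Benjamini-Hochberg adjustment (0.201). It was the one receptor of the 17 called between betamethasone-exposed groups, and 1.50% of all genes passed in BYP against BNS. Oprd1 was well above background in at most 15 of 20 samples. A gene could pass the filter through a single condition where it was high. The part of this in the difference was not tested.

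Of 18 tested Gi/o subunit genes, the number higher and lower than in SNS was 1 and 2 in BNS, 1 and 0 in BYS, 0 and 2 in BYA and 0 and 2 in BYP. Gnao1, the abundant alpha subunit of neurons, fell by 0.47 on the log2 scale in BNS (limma adjusted p = 0.0325). Gnb1, a beta subunit, had differences of -0.53 in BNS (0.0133) and -0.48 in BYA (0.0202). Gnai3 had differences of -0.50 in BYA (0.00932) and -0.39 in BYP (0.0394). With the processed signals these calls were lost, and Gnb1 in BYA (0.12) and Gnai3 in BYA and BYP (0.05 and 0.04) turned direction.

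Among 15 regulators of Kir3 signalling, the counts higher and lower than in SNS were 0 and 3, 1 and 2, 1 and 2, and 1 and 1 in BNS, BYS, BYA and BYP. Ppp1r9b (spinophilin), a scaffold that holds phosphatase and RGS proteins at receptors, was lower in BNS, BYS and BYA (differences of -0.35, -0.33 and -0.38, limma adjusted p = 0.031, 0.0421 and 0.0187). Rgs8 and Rgs9 were also lower in BNS (-0.42 and -0.39, limma adjusted p = 0.0224 and 0.0459). Among 12 tested glial partners of Kir4.1, BNS had Gja1 (a connexin) higher by 0.45 (limma adjusted p = 0.00272) and the glutamate transporter gene Slc1a2 lower (-0.79, 0.0166), BYS had Gja1 higher by 0.27 (0.0479), and BYA had Cav1 (caveolin) lower (-0.77, 0.00056). Among 11 scaffolds of Kir2 channels, Dlg2 (PSD-93) was lower in BNS (-0.51, 0.00515) and Apba1 (Mint1) was higher in BYS (0.47, 0.0498). Lin7b was lower in BYP than in SNS (-0.87, 0.00252) and than in BYA (-0.98, 0.0493), where 0.158% of all genes passed.

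Of the calls named from the lists, those of Oprd1, Cav1, Dlg2, Gja1 in BNS, Gnai3 in BYA and Lin7b against SNS were made with any single rat left out. Each of the others was lost without at least 1 rat, and each SNS replicate was among those rats, with adjusted p up to 0.191. Rgs8 and Rgs9 are left out of this statement, as their values with rats left out are not given here. The Adora1 call was lost in 10 of 14 other settings (differences of 0.03 to 0.44) and Oprk1 in BYS in 6 of 13 (0.09 to 0.89). Lin7b was lost in 9 of 14 in BYP against BYA and in 1 of 14 against SNS. Gja1 in BYS was lost in 10 of 14 (0.14 to 0.28) and Apba1 in BYS in 7 of 13. Gja1 in BNS was lost in 2 of 14 (0.01 to 0.45) and Oprd1 in BNS in 2 of 13 (0.49 to 0.71). Cav1 in BYA (-0.85 to -0.23) and Dlg2 in BNS (-0.65 to -0.36) were each lost in 1 of 14. Oprk1 and Apba1 were well above background in at most 17 and 13 of 20 samples, so they too could have passed the filter through a single condition. The median log2 difference from SNS of the receptor, subunit, regulator, glial and scaffold lists lay between -0.15 and 0.16.

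The genes whose levels most resembled those of a member over the 20 samples were named for each, after removal of the dye effect and over 16299 genes. For Kcnj14 they were Anapc5 (r = 0.928) and LOC100912427 (0.914), and for Kcnj6 they were Wnt4 (0.921) and Epha5 (0.917). For Kcnj16 they were Fdft1 (0.882) and Elavl4 (0.861), and for Kcnj4 they were Jdp2 (0.826) and an unnamed probe (0.816). Kcnj5 was closest to Mast3 (0.84) and an unnamed probe (0.793), Kcnj9 to Fam168a (0.814) and Cox4i2 (0.813), and Kcnj3 to Or2y1i (0.848) after an unnamed probe (0.89). The samples share slides and conditions, so these values describe the order of the 20 samples and nothing more.

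Between members, Kcnj6 and Kcnj16 ran in opposite directions (r = -0.71 over 20 samples, and -0.50 after the condition means were removed). Kcnj14 and Kcnj6 had r = 0.54 over all samples and 0.07 within conditions. Kcnj3 and Kcnj6 had r = -0.50 over all samples and -0.65 within conditions.

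The promoters of the members were searched for a short motif of the glucocorticoid receptor, as a description of the sequence. RefSeq entries (GRCr8, 250 bases before to 50 after the start) were matched for 8 of the 10 members. The letters AGAACA, on either strand, were in 0 of the 8 and in 20.7% of 33469 rat promoters. These letters are thus not in these windows.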

How the data were processed

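RNA of each arcuate nucleus carried Cy3 or Cy5 and was read on rat arrays, 20 samples on 11 arrays and 6 slides. The authors deposited the scanner output, extracted with Agilent Feature Extraction 11.5.1.1 per the file headers (10.7.3.1 in the submitters' processing notes). The deposited mean signal and median background of each spot are raw intensities, and the deposited processed signals are intensities corrected for background and dye by the software. The deposited flags (0 or 1) mark outlier spots, saturation and signals well above background. The 82 columns that belong to another series were not used. For BYA replicate 3 the dye label and the order of names disagree, so its channel is uncertain, and the label was used.

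Each channel was treated as 1 sample. Outlier spots were left out, the background was corrected by normexp with an offset of 50, and the log2 levels of all 20 channels were quantile normalized in limma 3.58.1 (R 4.3.3, the data.table package, version 1.17.8, statmod 1.5.0). Spots of a probe and kept probes of a gene were averaged. A probe counted as well above background in a sample if at least a share of 0.5 of its spots there were. It was kept if that held in every sample of at least 1 condition, which left 19883 of 30367 probes. Symbols were updated through RefSeq accessions for 18643 probes (61.4%). One fit over all 5 conditions with dye as a covariate gave 10 contrasts and an F test, with adjusted p by Benjamini-Hochberg over 17086 genes and a threshold of 0.05. The fit was checked on simulated data. No member spot was saturated. Levels of different probes were not compared, and the number of arrays limits the precision. The labels name separate pups but not their litters, so p-values cover the spread between these samples. On 9 of the 11 arrays, 2 samples of the same condition shared the array, and the fit treated them as independent. With the array as a random block (correlation 0.365), 2064 rather than 5179 genes passed the F test. In BNS against SNS, 2595 rather than 4881 genes passed.

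The members and the gene lists were chosen with earlier results of these data known. All 10 members were named. From the lists, other Kir genes, sulfonylurea receptors and up to 5 called genes per list and comparison could be named, as could the 2 genes most alike to each member. Alternatives covered the starting signal, background, scaling, filter, probe choice, dye, array and slide blocks, replicate block, samples in the fit, the methods' t-test and leaving out each sample.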

Additional observations from a re-analysis of the deposited data

Results flagged for a closer look

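In 3 of the 35 groups of 4 values tested (7 members in 5 conditions), 1 rat stood far from the other 3 by Dixon's criterion, which sets the gap to the nearest rat against the group's range. Chance flags about 1 in 20 such groups. Kcnj14 in BYP replicate 2 was at a log2 level of 10.67, above 10.14 to 10.19 in the other BYP rats, and the BYP call against SNS was also made without this rat. Kcnj5 in BYS replicate 1 was at 9.75, below 10.31 to 10.34 in the other BYS rats. Kcnj6 in BYA replicate 2 was at 9.73, above 9.15 to 9.24 in the other BYA rats.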

How the results depend on the processing

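The number of members called moved with the processing, and no called difference of a member turned direction. Of the differences from SNS that did not pass, these turned. Kcnj14 in BNS was -0.02 with processed signals. Kcnj9 in BYA was -0.23 with the brightest probe and with probes well above background in all samples, -0.01 with loess and Aquantile, and 0 to 0.22 with 1 rat left out. Kcnj9 in BYS was 0.04 with processed signals, 0.02 without background correction, and -0.12 to 0.10 with 1 rat left out. Kcnj5 in BNS was 0.02 without the filter and -0.20 to 0.15 with 1 rat left out, the highest without SNS replicate 3. Kcnj4 in BYP was 0.21 with median scaling, 0.34 with processed signals, 0.05 without background correction, and -0.15 to 0.05 with 1 rat left out. Kcnj3 in BYP was 0.02 without background correction or the filter, and -0.08 to 0.06 with 1 rat left out. Outside the members, Kcnj12 in BNS (0.50), Gnb1 in BYA (0.12) and Gnai3 in BYA and BYP (0.05 and 0.04) turned against SNS with processed signals. Processed signals gave 0 members in the F test and 0 in BNS, BYS, BYA and BYP against SNS. Median scaling gave 0 in BNS and 1 in BYS against SNS and 1 in BYP against BYS, and moved the median difference of all genes to -0.138, -0.129 and -0.172 in these comparisons. Without background correction there was 1 in the F test and 1 in BNS. Without the filter, which lets in all 10 members and their dim probes, there was 1 in BNS and 5 in BYP against SNS, and 1 in BYP against BYA. Kcnj2 and Kcnj10, which the filter removes, were well above background in 1 of 20 samples each. The array as a random block (correlation 0.365) gave 1 in the F test, 0 in BNS and 1 in BYS. The slide as a random block had a negative correlation (-0.128) and gave 4 in the F test, 4 in BNS, 4 in BYA and 2 in BYP against BNS. Without the dye covariate there was 1 in the F test and 0 in BNS. With only the compared conditions fitted there was 1 in BYP. The methods' t-test gave 1 in BYP against SNS and 1 in BYP against BNS unadjusted, and after Benjamini-Hochberg adjustment 0 in BNS, 1 in BYS and 0 in BYP. Leaving out 1 sample at a time gave 1 to 3 in the F test, and against SNS it gave 0 to 2 for BNS, 1 to 3 for BYS, 1 to 2 for BYA and 2 to 3 for BYP. The cause of these changes was not tested.

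With the replicate number as a block, 1 member passed the F test, Kcnj14 (adjusted p = 0.00292), and Kcnj16 did not (0.0652), while each member's call against SNS was as without the block. After the condition means and the dye effect were removed, same-numbered samples did not deviate together. Their mean correlation was 0.0031 over 40 pairs (from -0.239 to 0.28), against -0.000752 over 120 other pairs. Same-numbered samples also carried the same dye, which these correlations leave out. Signal over background was lower in SNS, BYA and BYP than in BNS and BYS. This may limit the dim probes, Kcnj4 and the second probe of Kcnj9 among them, which was not tested.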
